A study of Mus musculus with 2 samples.

Results

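Cluster 6 is 1 of 15 groups of cells that the authors distinguished in the control library of a single-cell RNA study of mouse salivary gland stroma, and its leading genes were Mgp, Pmepa1, Timp1, Timp3 and Mmp9. Its members here are the 295 genes that the authors' deposited table of the control library gives for cluster 6, out of 10368 entries and 4419 genes over all control clusters. The cells came from organoids, small cell aggregates grown in culture, made from salivary gland stroma of CD-1 mice, an outbred stock. The age label is embryonic day 16 with 7 added, and no source used here says what the added 7 stands for. A library of organoids that received FGF2, a fibroblast growth factor, was made from 10107 captured cells, and the control library from 5023. No source used here states its dose or time. Capture was in droplets, where transcripts receive a barcode of their cell at the 3′ end, and there was 1 library for each condition.

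In an embryonic salivary gland the stroma, or mesenchyme, lays down the extracellular matrix around the branching epithelium and sends it growth factors. Matrix is made and remodelled at the same time: collagens, fibronectin and elastic fibre proteins are secreted, metalloproteinases cut them, and the tissue inhibitors of metalloproteinases (TIMPs) hold those enzymes back. Transforming growth factor beta (TGF-beta) is a family of secreted signals that raises matrix production in fibroblasts. Mgp encodes matrix Gla protein, a secreted inhibitor of calcification, and Pmepa1 encodes a membrane protein that is induced by TGF-beta and dampens its signal.

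For each gene the table gives the natural log of a ratio, the average level in the cluster over that in all other control cells with 1 added to each average, and the share of cells with a count above 0 on either side. The entries for cluster 6 hold log ratios of at least 0.25 in size and reach a share of at least 25.1% in the cluster or in the other cells, so a gene that is not listed is not known to be equal. All ratios and shares given here are values of the authors' deposited tables. The cells were grouped by the levels of these same genes in 1 library, so a difference between cluster 6 and the other cells is a description and carries no test. The number of counts per cell is unknown, and no interval is given for a share.

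Of the 295 genes, 143 were listed higher in cluster 6 and 152 lower. That is 3.24% and 3.44% of the 4419 genes listed for any control cluster. It is 0.75% and 0.797% of 19070, the factor between the authors' p-values and their adjusted p-values. This factor was taken as the number of genes in their adjustment. How many genes were tested for each cluster is not known. The shares of the 143 higher genes had a median of 85.5% in cluster 6, against 59.6% in the other control cells. All 143 higher genes were found in a larger share of cluster 6 cells than of other cells. Levels and shares came apart among the lower genes: their median share was 66.75% in cluster 6, against 71.15% in the other cells, and 61 of the 152 had the larger share in cluster 6. This was not particular to cluster 6. In clusters 0, 1, 2, 3 and 5 the same held for 28 of 61, 77 of 184, 53 of 143, 48 of 93 and 115 of 207 lower genes. The other cells include cluster 4, with 10.6% of the control cells and a median share of 10.9% over its own listed genes. Lpl, which encodes lipoprotein lipase, was found in 90.8% of cluster 6 cells, against 85.0% of other cells, with a log ratio of -0.81. Most differences were modest, with a median ratio of 1.45 among the higher genes and 0.696 among the lower ones. Ratios of at least 2 were listed for 11 higher genes and ratios of at most 0.5 for 15 lower genes. Foxs1 and Nrp1 lay just inside the limit at 0.25, and Serpinb6a and Chd3 at -0.25. From the shares of genes listed in more than 1 cluster, cluster 6 was calculated to hold 7.16% of the control cells.

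**Figure D1:**
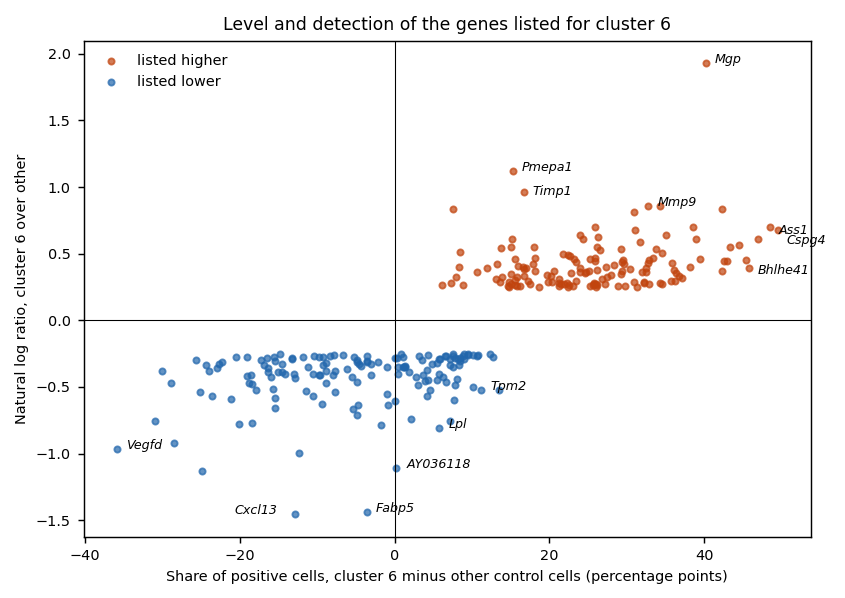
Each point is 1 of the 295 genes listed for cluster 6, with the difference in the share of positive cells (cluster 6 minus other control cells, in percentage points) on the x axis and the natural log ratio on the y axis. All 143 higher genes lie right of 0, whereas 61 of the 152 lower genes lie there too.

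The added 1 draws each ratio towards 1 relative to the ratio of the averages themselves, most of all for genes with low averages. For 7 of the genes the averages could be recovered without it, because another control cluster is listed with no positive cell. Ctsc, which encodes the lysosomal protease cathepsin C, had an average of 1.11 in cluster 6, against 0.333 in the other cells. That is a ratio of 3.32, where the listed ratio was 1.58. Foxs1, a forkhead transcription factor gene, had an average of 0.615 in cluster 6, against 0.258 in the other cells, a ratio of 2.39 where 1.28 was listed. Among the lower genes, Adm, which encodes the peptide hormone adrenomedullin, had an average of 0.0965 in cluster 6, against 0.603 in the other cells, a ratio of 0.160 where 0.684 was listed. The listed ratios therefore understate the differences of these 3 genes.

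Mgp stood apart from all other genes of the cluster. It was found in 67.1% of cluster 6 cells, against 26.9% of other control cells, with a log ratio of 1.93, a ratio of 6.88. The gene lies on chr6:136872435-136875823, on the minus strand of GRCm38. Mgp was also listed higher in cluster 2, where 51.7% of cells were positive against 26.2% outside it, and in cluster 13, where 61.5% were positive. It was listed lower in clusters 0, 3, 4, 5, 9 and 10, and in cluster 10, which carries Schwann or glial cell markers, 10.3% of cells were positive.

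Pmepa1 was found in 100% of cluster 6 cells, against 84.7% of other control cells, with a log ratio of 1.12. It is encoded on chr2:173224458-173276533, on the minus strand of GRCm38. In no other control cluster was Pmepa1 listed higher. It was listed lower in macrophage-like cluster 11, with 24.5% of cells positive, and in endothelial-like cluster 14, with 40.0%. In the large stromal clusters 0, 1, 2, 3 and 5 it was not listed in either direction.

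The inhibitors Timp1 and Timp3 came next. Timp1, at chrX:20870166-20874735 on the plus strand of GRCm38, was found in 97.8% of cluster 6 cells, against 81.1% of other control cells, with a log ratio of 0.97. Timp3, at chr10:86300372-86349506 on the plus strand, was found in 77.4% of cluster 6 cells, against 43.1% of other cells, with a log ratio of 0.86. Both lie across a synapsin gene on the opposite strand, Timp1 across Syn1 and Timp3 across Syn3, and whether reads were counted by strand is not given in the sources used here. Timp1 was listed higher also in cluster 12, which is led by Ccl2, Mt1 and Hmox1, with 85.4% of its cells positive. Timp3 was listed higher also in Schwann or glial-like cluster 10, with 84.5% of its cells positive and a ratio of 2.28, close to the 2.37 of cluster 6. In macrophage-like cluster 11, 22.6% of cells were positive for Timp1 and 7.5% for Timp3.

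Mmp9 encodes gelatinase B, a secreted metalloproteinase that TIMP-1 inhibits. It lies on chr2:164940780-164955850, on the plus strand of GRCm38. Mmp9 was found in 37.9% of cluster 6 cells, against 5.1% of other control cells, with a log ratio of 0.86. Macrophage-like cluster 11 was the only other control cluster in which it was listed, with 32.1% of cells positive against 7.2% outside it and a ratio of 2.04, against 2.36 for cluster 6. Macrophages are a known source of this enzyme. None of the 12 macrophage markers in the control table was listed for cluster 6, and the part of stray RNA in the Mmp9 counts was not tested.

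The window before Timp1 is shown because Timp1 gives the cluster its name together with Mgp. It comes from the RefSeq promoter table of GRCm38.p6 and covers chrX:20869916-20870165 on the plus strand, the 250 bases before the start of the gene, written 5′ to 3′. Capitals mark TGGGAA, the core letters read by RBPJ, the DNA-binding partner of Notch, whose first base lies 158 bases before the start.
Timp1: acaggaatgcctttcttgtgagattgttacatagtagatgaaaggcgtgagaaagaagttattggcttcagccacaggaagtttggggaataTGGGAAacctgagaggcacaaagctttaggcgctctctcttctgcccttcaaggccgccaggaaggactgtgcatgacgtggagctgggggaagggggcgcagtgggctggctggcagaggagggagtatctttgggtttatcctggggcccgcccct
The match describes the letters of this window and does not show that a factor binds there.

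**Figure D2:**
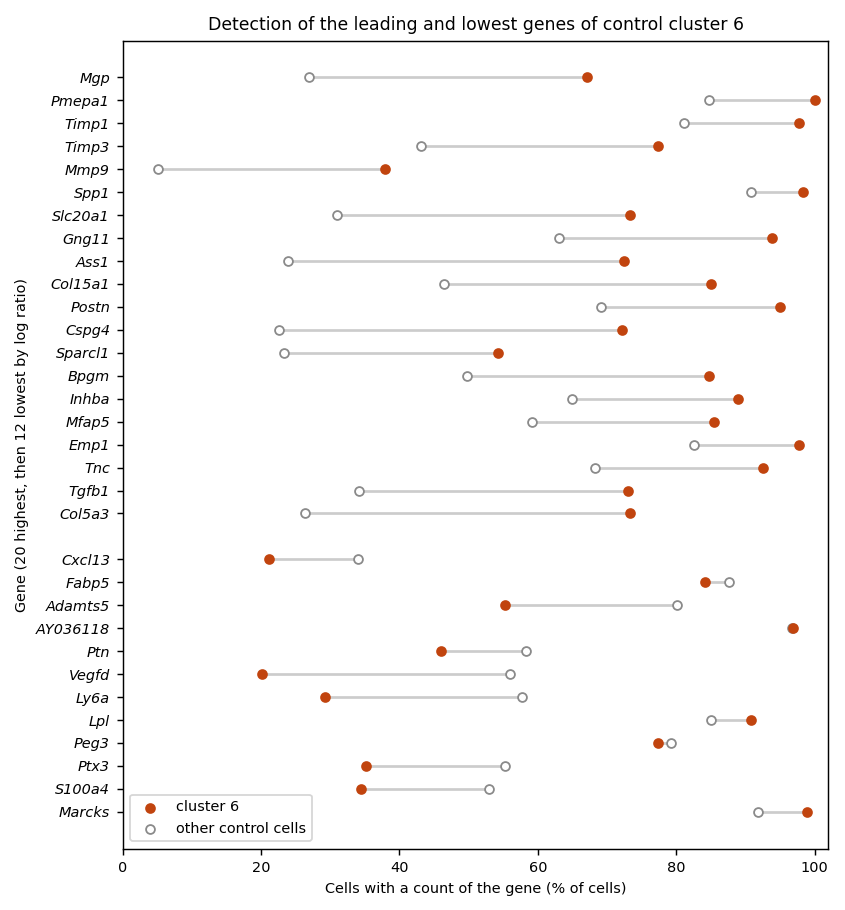
Share of cells with a count of each gene in cluster 6 (filled) and in the other control cells (open), in percent, for the 20 genes with the highest and the 12 with the lowest log ratio in cluster 6. Mgp, Mmp9, Ass1 and Cspg4 are separated by wide gaps, and Lpl and Marcks have the larger share in cluster 6 although they are listed lower.

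Among the 25 gene lists, the one for fibrillar collagens and partners had the most members listed higher in cluster 6. Of 20 fibrillar collagen and partner genes in the control table, 12 were listed higher in cluster 6 and 1 lower, against 3.24% and 3.44% of all listed genes. These and the other gene lists were chosen with results of these data already known. The 12 were Col1a1, Col1a2, Col5a1, Col5a2, Col5a3, Col6a1, Col6a2, Col6a3, Col8a1, Fn1, Postn and Tnc. Postn, which encodes periostin, a matrix protein that binds collagen, was found in 95.0% of cluster 6 cells, against 69.1% of other cells, with a log ratio of 0.70. Tnc, which encodes tenascin C, a matrix glycoprotein of developing and healing tissue, was found in 92.5% of cluster 6 cells, against 68.2% of other cells. Col5a3, a chain of collagen V, the collagen that starts and limits fibril growth, was found in 73.3% of cluster 6 cells, against 26.4% of other cells. Col1a1, the main chain of collagen I, was found in every cluster 6 cell, against 91.7% of other cells, with a log ratio of 0.40. Col1a1 was also found in 66.0% of macrophage-like cluster 11 cells, a type not known for making it, and the counts per cell behind both shares are unknown. The single lower member was Thbs1, which encodes thrombospondin 1, with a log ratio of -0.60. Col3a1 and Sparc were not listed for cluster 6.

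Among 16 basement membrane genes in the table, 3 were listed higher and 1 lower. Col15a1, a collagen at the border of basement membranes, was found in 85.0% of cluster 6 cells, against 46.5% of other cells, with a log ratio of 0.70. Col4a1 and Col4a2, the chains of the most widespread collagen IV, had log ratios of 0.46 and 0.33, and Nid2, which encodes nidogen 2, had -0.28. The laminin genes of the list were not listed for cluster 6. Of 24 genes for elastic fibres and collagen crosslinking, 4 were listed higher (Fbn1, Mfap5, Ltbp2 and Loxl1) and 4 lower (Eln, Fbn2, Efemp1 and Plod2). The fibrillins therefore lay on opposite sides. Fbn1 was found in 98.1% of cluster 6 cells, against 80.1% of other cells, with a log ratio of 0.55. Fbn2, the fibrillin known for its part in embryonic fibres, was found in 76.0% of cluster 6 cells, against 73.0% of other cells, with a log ratio of -0.49.

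Proteoglycans and hyaluronan were represented by Cspg4, Bgn and Has2 among the higher genes and by Ogn and Prelp among the lower ones, out of 11 in the table. Cspg4, which encodes the membrane proteoglycan NG2, had the widest gap in share of all the higher genes, 49.5 percentage points. It was found in 72.1% of cluster 6 cells, against 22.6% of other control cells. Cluster 12 was the only other control cluster with Cspg4 listed higher, at 48.8% of cells. Has2, a hyaluronan synthase gene, was found in 48.5% of cluster 6 cells, against 31.0% of other cells.

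Enzymes that cut matrix and their inhibitors were listed on both sides. Of 20 metalloproteinase and inhibitor genes in the table, 5 were listed higher (Mmp9, Mmp11, Mmp14, Timp1 and Timp3) and 2 lower (Adamts1 and Adamts5). Mmp14, a membrane-bound collagenase, was found in 98.1% of cluster 6 cells, against 84.3% of other cells, with a log ratio of 0.55. Adamts5, an enzyme that cuts the proteoglycan aggrecan, was found in 55.2% of cluster 6 cells, against 80.1% of other cells, with a log ratio of -1.13. Adamts5 was listed higher in clusters 0 and 3, where 98.1% and 97.5% of cells were positive. In the plasminogen system, Plat, the tissue plasminogen activator, was found in 88.6% of cluster 6 cells, against 52.5% of other cells. Serpine2, a protease inhibitor gene, was found in 57.7% of cluster 6 cells, against 36.5% of other cells. Serping1, the inhibitor of complement C1, was listed lower, with a log ratio of -0.47.

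All 3 TGF-beta ligand genes were listed higher in cluster 6. Tgfb1 was found in 73.0% of cluster 6 cells, against 34.1% of other control cells, with a log ratio of 0.61. Tgfb2 was found in 58.2% of cluster 6 cells, against 26.0% of other cells, and Tgfb3 in 63.8% of cluster 6 cells, against 31.6% of other cells. Their log ratios were 0.28 and 0.29. Inhba, which encodes the activin A subunit, was found in 88.9% of cluster 6 cells, against 64.9% of other cells, with a log ratio of 0.64. Pmepa1, Skil, a repressor of SMAD signalling, and Ltbp2, a latent TGF-beta binding protein gene, were also listed higher. Listed lower were Tgfbr3, the co-receptor betaglycan, with a log ratio of -0.38, and Tgfbi, a matrix gene named for its induction by TGF-beta, with -0.35. Tgfbi was found in 38.2% of cluster 6 cells, against 49.4% of other cells. Other genes named as TGF-beta responses, Ccn2 and Smad7, were not listed for cluster 6.

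Contractile genes were listed on both sides. Of 23 in the table, 2 were listed higher (Myh9 and Cald1) and 5 lower (Cnn1, Cnn2, Myl9, Tpm2 and Lmod1). Tpm2, a tropomyosin gene, was found in 97.5% of cluster 6 cells, against 86.3% of other cells, with a log ratio of -0.53. Myl9, a myosin light chain gene, was found in 81.6% of cluster 6 cells, against 71.5% of other cells, with a log ratio of -0.50. Acta2 and Tagln, the usual myofibroblast markers, were not listed for cluster 6. In cluster 5, which is led by Acta2, Actg2 and Tagln, Acta2 had a ratio of 3.73.

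Slc20a1, a sodium-dependent phosphate transporter, was found in 73.3% of cluster 6 cells, against 31.0% of other control cells, with a log ratio of 0.84. Spp1, which encodes osteopontin, was found in 98.3% of cluster 6 cells, against 90.8% of other cells, also with 0.84. Ank, whose product lets pyrophosphate out of the cell, was found in 57.9% of cluster 6 cells, against 21.7% of other cells. With Mgp and Grem1, a secreted antagonist of bone morphogenetic proteins (BMPs), 4 of 20 BMP and skeletal-type genes in the table were listed higher, and the BMP target genes Id1 and Id4 were listed lower. Id1 was found in 21.4% of cluster 6 cells, against 40.5% of other cells. Id1 was also listed lower in clusters 1 and 11 and higher in cluster 2, and Id4 lower in clusters 1, 9, 11 and 12 and higher in cluster 3. The other 14 were not listed for cluster 6, among them Id2 and Id3. Runx2 and Sox9, which drive bone and cartilage formation, and Enpp1, whose product makes pyrophosphate, also belong to these 14.

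Genes of the retinoid and lipid list were found on both sides, and 7 of its 17 genes in the table, among them Crabp1, Rarb, Cd36 and Plin2, were not listed for cluster 6. Crabp2, a carrier of retinoic acid inside the cell, was found in 52.1% of cluster 6 cells, against 18.3% of other control cells, with a log ratio of 0.53. Stra6, the retinol uptake receptor, was found in 44.8% of cluster 6 cells, against 8.4% of other cells, and Aldh1a2, which makes retinoic acid, in 76.9% of cluster 6 cells, against 51.8% of other cells. Crabp2 and Stra6 were listed in no other control cluster. Ptgs2, the inducible cyclooxygenase, was listed higher too, as was the lipase gene Mgll, which is not on the list. Listed lower were Lpl, Fabp4, Fabp5, Apoe and Rarres2, which take part in the uptake and carriage of lipids or, for Rarres2, encode the adipokine chemerin. Fabp5 was found in 84.1% of cluster 6 cells, against 87.7% of other cells, with a log ratio of -1.44.

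Signals outside the TGF-beta family were mixed. Of all listed genes, 3.24% were higher and 3.44% lower in cluster 6. Of 7 Notch pathway genes in the table, Hes1 and Heyl, both targets of Notch, were listed higher and none lower. The other 5, Notch1, Jag2, Dll1, Dll4 and Nrarp, were not listed for cluster 6. Hes1 was also listed higher in clusters 9, 10 and 13, and Heyl in cluster 10. Of 13 Wnt genes, 3 were listed higher (Fzd1, Nkd2 and Ccn4) and 3 lower (Sfrp1, Rspo3 and Ccn5). Among genes for FGF signalling and the EGF family, Hbegf was the 1 higher gene of 18, found in 45.7% of cluster 6 cells, against 14% of other cells. Fgf7 and Fgf10, the mesenchymal FGFs that act on salivary epithelium, were listed lower. Fgf10 was found in 16.4% of cluster 6 cells, against 42.0% of other cells, and Fgf7 in 46.5% of cluster 6 cells, against 62.9% of other cells. Vegfa, the main angiogenic factor, and Pdgfa, a ligand of platelet-derived growth factor receptors, were listed higher. Vegfd, a lymphatic growth factor, had one of the lowest values, with 20.1% of cluster 6 cells positive, against 56.0% of other cells, and a log ratio of -0.96.

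Chemokine, complement and interferon-induced genes that were listed for cluster 6 were lower, with the exception of Il11, and the other members of these lists were not listed for it. Of 11 chemokine and cytokine genes in the table, 5 were listed lower (Ccl7, Csf1, Cxcl5, Cxcl12 and Cxcl13) and 1 higher, Il11, and the other 5 were not listed for cluster 6. Cxcl13, which attracts B cells, had the lowest log ratio of the cluster at -1.45, with 21.2% of cluster 6 cells positive, against 34.0% of other cells. Cxcl12 was found in 73.5% of cluster 6 cells, against 78.2% of other cells, with a log ratio of -0.63. Il11, a cytokine of fibroblasts, was found in 39.3% of cluster 6 cells, against 9.7% of other cells. Among 10 innate defence genes, C1s1, Clu, Ptx3 and Serping1 were lower, none higher and 6 not listed. Among 9 interferon response genes, Ifitm1, Ifitm2 and Ifitm3 were lower, none higher and 6 not listed, among them Isg15 and Bst2. Ifitm1 was found in 6.7% of cluster 6 cells, against 25.1% of other cells.

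Markers that divide stromal cells were listed on both sides. Pdgfrb, the receptor of perivascular and fibroblast cells, was found in 98.9% of cluster 6 cells, against 80.7% of other control cells, with a log ratio of 0.46. Pdgfra, the other receptor of the pair, was found in 85.5% of cluster 6 cells, against 77.7% of other cells, with a log ratio of -0.28. Ly6a, which encodes the progenitor marker Sca-1, was found in 29.2% of cluster 6 cells, against 57.7% of other cells, and S100a4 in 34.5% of cluster 6 cells, against 52.9% of other cells. Of 21 stromal identity genes in the table, 2 were listed higher (Pdgfrb and Lrrc15) and 5 lower (Pdgfra, Ly6a, Vcam1, S100a4 and Dlk1). That compares with 3.24% and 3.44% of all listed genes, and the other 14 were not listed for cluster 6. Several of these directions were also listed in other large stromal clusters. Pdgfrb was higher in cluster 2, Pdgfra lower in cluster 5, Ly6a lower in cluster 1 and S100a4 lower in clusters 0 and 1.

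The marker lists bear on the stromal label. Of 10 fibroblast markers, Col1a1, Col1a2 and Postn were listed higher, Pdgfra lower, and the other 6 were not listed for cluster 6. Of 4 pericyte markers in the table, Pdgfrb and Cspg4 were higher, while Abcc9 and Mcam were not listed for cluster 6 and Rgs5 and Notch3 were not in the table, so no pericyte name is given. Of 8 smooth muscle markers, 3 were lower and none higher. Of 3 osteoclast markers in the table, Ctsk and Mmp9 were higher and Atp6v0d2 was not listed for cluster 6. The other 5 osteoclast markers were not in the table, so no osteoclast name is given. Ctsk was found in 94.7% of cluster 6 cells, against 65.3% of other cells, and cluster 1 also had it higher. No marker of epithelial, basal, macrophage, Schwann or proliferating cells was listed for cluster 6 in either direction, which does not show that they are absent. Of the 12 endothelial markers in the table only Fabp4 was listed for cluster 6, and it was lower. Of 28 cell cycle genes, Cdkn2b was listed higher and Cdkn1c lower, both inhibitors of cyclin-dependent kinases, and the proliferation genes were not listed. None of the 22 antioxidant and stress genes, the 20 ribosomal protein genes or the 13 mitochondrially encoded genes in the table was listed for cluster 6.

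Some higher genes were rare outside the cluster. The part of all positive control cells that lay in cluster 6 was calculated for each higher gene from its shares and the 7.16% of cells in the cluster, and had a median of 9.96%. Heyl was found in 33.4% of cluster 6 cells, against 2.1% of other control cells, so that 55.1% of its positive cells lay in cluster 6. Cdh6, which encodes cadherin 6, was found in 29.8% of cluster 6 cells, against 2.4% of other cells, with 48.9% of positive cells in cluster 6. For both genes the Schwann or glial-like cluster 10 was the other place of high listing, with 43.1% of cells positive for Heyl and 27.6% for Cdh6. Mgll, which encodes monoglyceride lipase, had 37.3% of its positive cells in cluster 6, Mmp9 36.4%, and Bhlhe41, a repressor of transcription, 35.7%. Bhlhe41 was found in 53.2% of cluster 6 cells, against 7.4% of other cells. Tfpi2, a protease inhibitor gene, was found in 30.1% of cluster 6 cells, against 4.9% of other cells. In all, 13 higher genes had over 20% of their positive cells in cluster 6. Because of the added 1, several of these had small listed log ratios, 0.25 for Heyl and 0.33 for Cdh6.

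The same genes were followed through the other 14 control clusters. All these comparisons share the cells of 1 library, so a gene that is high in 1 cluster raises the average of the other cells for every other cluster. Of the 143 higher genes, 106 were listed higher in at least 1 other control cluster and 37 in none, close to the 75.4% of all listed genes that were higher in at least 1 of those clusters. Cluster 12, led by Ccl2, Mt1 and Hmox1 and calculated to hold 0.828% of the cells, listed 33 of them higher, 23.1% of the 143 against 10.8% of all listed genes. Clusters 1 and 5, led by Crabp1 and by Acta2, listed 25 and 24 of them higher, 17.5% and 16.8% of the 143, against 5.41% and 3.69% of all listed genes. Cluster 10 listed 28 higher, 19.6% of the 143, close to the 21.9% of all listed genes. Cluster 4, whose own listed genes have low shares, had 1 listed higher and 48 lower, against 2.63% and 9.01% of all listed genes.

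In clusters 2 and 3, led by Spp1 and by Thbs1, 12 of the 143 were listed higher in each, 8.39% of them, against 5.61% and 3.24% of all listed genes. Cluster 0, led by Fbn2 and Vegfd, listed 6 higher and 21 lower, against 1.24% and 1.38% of all listed genes. The proliferating clusters 7 and 8 listed 1 higher and 2 lower each, against 5.16% and 5.34% of all listed genes for higher and 0.52% and 1.29% for lower, so the genes of cluster 6 were mostly not listed there. Many were listed lower in the non-stromal clusters: 64 in epithelial-like cluster 9, 73 in macrophage-like cluster 11 and 52 in endothelial-like cluster 14, against 19.1%, 22.8% and 16.7% of all listed genes. Those clusters listed 7, 5 and 5 higher, against 11.5%, 7.02% and 5.95%. Cluster 13, with basal and epithelial markers, listed 16 higher and 58 lower, against 16.7% and 13.6%, and cluster 10 listed 55 lower, against 14.4%.

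Some of the higher genes were shared with the large stromal clusters 0, 1, 2, 3 and 5. Each of these clusters listed a larger share of the 143 higher than of all listed genes. In clusters 1, 2, 3 and 5 it was 17.5%, 8.39%, 8.39% and 16.8%, against 5.41%, 5.61%, 3.24% and 3.69%. The other 85 of the 143 were higher in none of the large stromal clusters. The share of all listed genes higher in none of them was not calculated, so the 85 do not show that cluster 6 is set apart. Of the 143, 30 were also higher in cluster 1 or 2 and 26 in cluster 3 or 5, and none in both sets. The overlap was small over all control genes as well, with 397 listed higher in cluster 1 or 2, 240 in cluster 3 or 5, and 6 in both. The first set includes Mgp, Spp1, Col15a1, Postn, Pdgfrb, Grem1, Mmp14 and the 3 collagen VI genes. The second set includes Col1a1, Col1a2, Fn1, Inhba, Tgfb2, Tgfb3, Fbn1 and Aldh1a2, and of these Col1a1, Col1a2, Fn1 and Aldh1a2 were higher in cluster 0 too. Col15a1 had a ratio of 2.02 in cluster 6 and 2.17 in cluster 1, and 0.587 in cluster 0 and 0.581 in cluster 5. Inhba had a ratio of 1.90 in cluster 6 and 1.86 in cluster 5, and 0.617 in cluster 2. Spp1 had a ratio of 2.31 in cluster 6, 4.47 in cluster 2 and 0.0981 in cluster 5.

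A further 22 higher genes were otherwise higher in non-stromal clusters 9, 10, 11, 13 or 14 alone. The share of all listed genes with this pattern was not calculated, so the 22 are given as a description only. These clusters listed 11.5%, 21.9%, 7.02%, 16.7% and 5.95% of all listed genes higher. Timp3, Mmp9, Tgfb1, Hes1 and Heyl belong to the 22. Tgfb1 was listed higher in cluster 10 with a ratio of 1.71, in macrophage-like cluster 11 with 2.30 and in endothelial-like cluster 14 with 2.12, beside 1.84 in cluster 6. In none of the other stromal clusters was Tgfb1 listed in either direction. Gng11, a G protein gamma subunit gene, was found in 93.9% of cluster 6 cells, against 63.0% of other cells, and was listed higher also in cluster 14.

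**Figure D3:**
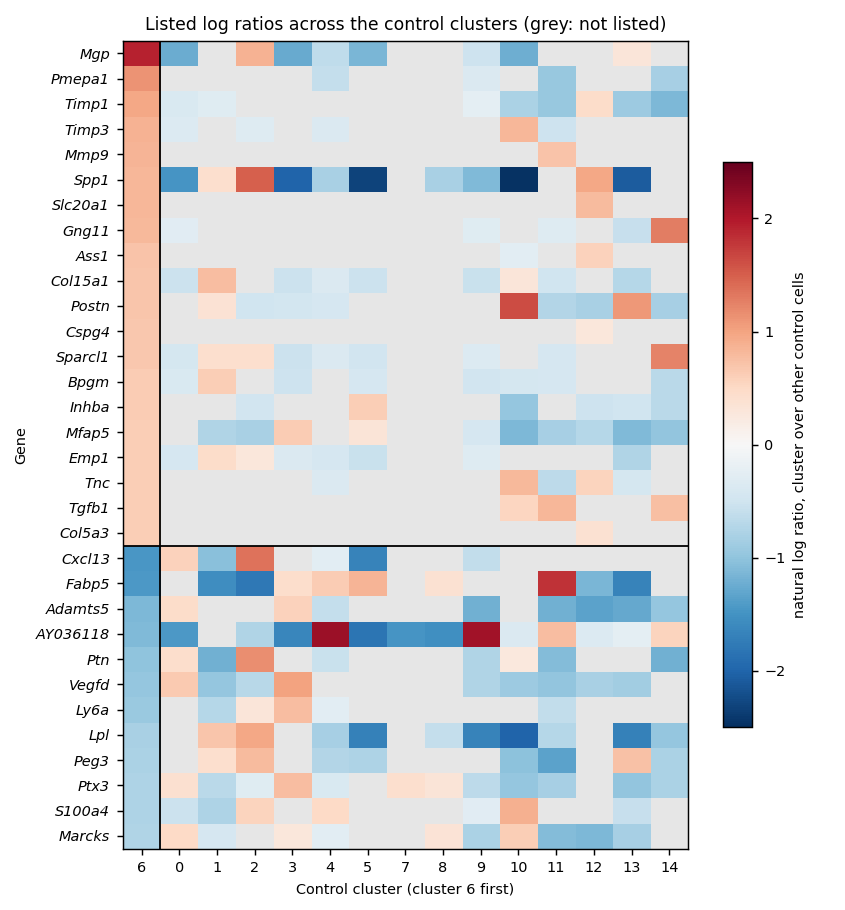
Natural log ratio (colour) of the 20 highest and 12 lowest genes of cluster 6 (rows) in the 15 control clusters (columns, cluster 6 first), grey where a gene is not listed. Pmepa1 is positive in cluster 6 alone, whereas Spp1 is positive in clusters 1, 2, 6 and 12 and strongly negative in clusters 3, 5, 10 and 13.

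The 37 genes listed higher in no other control cluster had a median share of 86.1% in cluster 6, against 60.8% in the other cells, and 16 of them were not listed for any other control cluster in either direction. Those with large log ratios include Pmepa1, Lrrc15, Mical2, Crabp2, Itgb5, Fibin, Gsto1, Rnf149 and Foxp1. Lrrc15, which encodes a leucine-rich repeat membrane protein known from TGF-beta-treated and tumour fibroblasts, was found in 68.5% of cluster 6 cells, against 24% of other cells, with a log ratio of 0.57. Mical2, an enzyme that oxidises actin, was found in 77.4% of cluster 6 cells, against 34.1% of other cells. Itgb5, an integrin subunit gene, was found in 96.7% of cluster 6 cells, against 74.9% of other cells. Rnf149, a ubiquitin ligase gene, was found in 73.8% of cluster 6 cells, against 28.4% of other cells.

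Lrrc15 has the second largest log ratio of these 37 genes, and its promoter window is shown because it holds the letters of the AP-1 motif. It comes from the RefSeq table of GRCm38.p6 and covers chr16:30283255-30283504 on the minus strand, the 250 bases before the start, written 5′ to 3′ along the gene. Capitals mark TGACTCA, a form of TGANTCA, whose first base lies 53 bases before the start.
Lrrc15: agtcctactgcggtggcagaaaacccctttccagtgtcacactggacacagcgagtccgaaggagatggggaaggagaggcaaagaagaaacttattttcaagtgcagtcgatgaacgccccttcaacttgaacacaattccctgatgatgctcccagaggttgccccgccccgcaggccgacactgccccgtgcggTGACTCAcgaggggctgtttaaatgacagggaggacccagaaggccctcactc
Windows of this length were found for 108 of the 143 higher genes, 143 windows in all, and 4 motifs were searched on both strands with overlaps allowed. TGANTCA was present in 5.59% of the windows of the higher genes, against 6.75% of all 32851 windows of the table. CAGAC, letters read by the SMAD mediators of TGF-beta, was present in 47.6%, against 42.2% of all windows. AGGTCA, letters read by retinoid receptors, was present in 11.9%, against 14%, and TGGGAA in 19.6%, against 21.6%. In the 4458 windows of genes listed for any control cluster, TGANTCA was present in 5.18%, CAGAC in 38.6%, AGGTCA in 10.9% and TGGGAA in 19.9%. The share for CAGAC lay further from that of these windows than from that of all promoters, and no difference was tested.

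**Figure D4:**
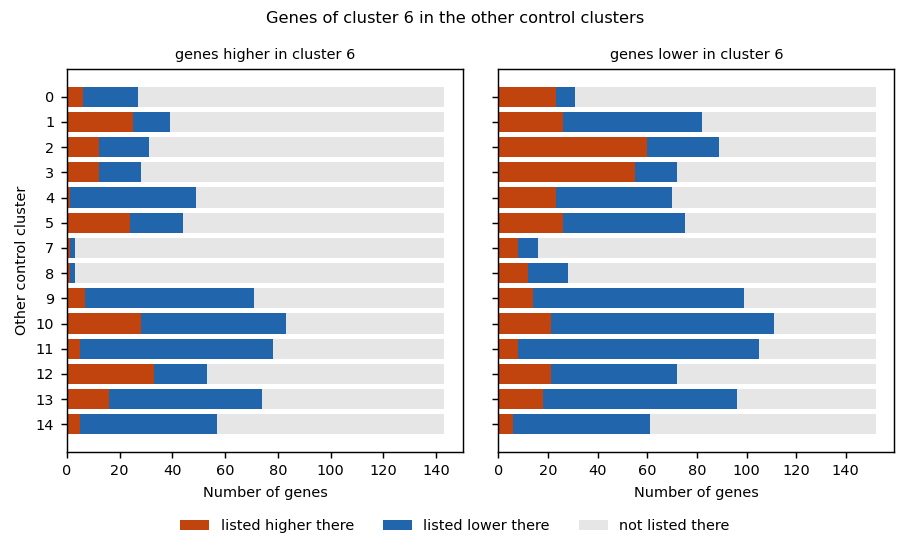
Number of genes (x axis) listed higher, listed lower or not listed in each other control cluster (y axis), for the 143 genes higher in cluster 6 (left) and the 152 genes lower in it (right). Cluster 12 lists the most higher genes, 33, and clusters 2 and 3 list 60 and 55 of the lower genes higher.

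Of the 152 lower genes, 143 were listed higher in another control cluster, against 75.4% of all listed genes, and 150 were listed lower in another, against 49.1%. Of the 143 that were higher elsewhere, 60 were so in cluster 2 and 55 in cluster 3, which is 39.5% and 36.2% of the 152, against 5.61% and 3.24% of all listed genes. Clusters 1, 5 and 12 listed 56, 49 and 51 of the 152 lower, against 4.16%, 4.68% and 8.71% of all listed genes, and clusters 2 and 3 listed 29 and 17 lower, against 3.24% and 2.1%. Vegfd was found in 89.7% of cluster 0 cells and 97.3% of cluster 3 cells, and Cxcl13 in 56.1% of cluster 2 cells. Ptn, which encodes the growth factor pleiotrophin, was found in 46.0% of cluster 6 cells, against 58.3% of other cells, and in 84.3% of cluster 2 cells. The 9 lower genes that were higher in no control cluster were Cemip, Ndn, Cavin1, Tle5, Lbh, Grb10, Sept11, Oat and Maged2. Cemip, which encodes a hyaluronan-degrading protein, was found in 21.7% of cluster 6 cells, against 52.6% of other cells, with a log ratio of -0.76.

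The FGF2 library holds other cells, grouped separately into 17 clusters, and its log ratios are relative to the FGF2 cells. Of the 143 higher genes, 116 were listed for some FGF2 cluster and 27 for none. Lrrc15, Mmp9 and Tgfb1 are among the 27. FGF2 cluster 8, led by Mgp, Pla1a and Ccl8 and calculated to hold 5.55% of the FGF2 cells, had the largest number in common. It listed 42 of the 143 higher, 29.4% of them, against 3.63% of all genes listed in the FGF2 table, and these made up 37.8% of its own 111 higher genes. Over the 72 genes listed for both clusters, the log ratios had a Spearman rho of 0.59, and 87.5% had the same direction. These genes share library chemistry and tissue, and genes are not independent replicates. FGF2 cluster 7, led by Igfbp5, Il11 and Slpi, listed 33 of the 143 higher, 23.1% of them, against 5.79% of all listed genes, with a rho of 0.46 over 78 genes. The likeness to FGF2 cluster 8 is not particular to cluster 6, since control cluster 1 had a rho of 0.61 with it over 64 genes.

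The label genes differed between the FGF2 clusters. Mgp was found in 90.6% of FGF2 cluster 8 cells, against 56.8% of other FGF2 cells, with a ratio of 9.52. In FGF2 cluster 7 it was found in 76.2% of cells, with a ratio of 2.05. Timp1 had a ratio of 3.47 in FGF2 cluster 7 and 2.23 in FGF2 cluster 8. Timp3 had ratios of 1.39 in FGF2 cluster 7 and 2.14 in FGF2 cluster 8. Pmepa1 was listed higher in FGF2 cluster 8, with a ratio of 1.38 and 83.5% of cells positive, against 75.8% of other FGF2 cells. Mmp9 was not listed in the FGF2 table.

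Of the genes higher in cluster 6, 18 were higher in both FGF2 clusters, among them Mgp, Timp1, Timp3, Spp1, Slc20a1, Ass1, Pdgfrb, Inhba, Col4a1, Col4a2 and Fn1. A further 24 were shared with FGF2 cluster 8 and not 7, and these included the fibrillar collagen genes Col1a1, Col1a2, Col5a2 and Col5a3 and the 3 collagen VI genes. With FGF2 cluster 7 and not 8, 15 were shared, including Il11, Ptgs2, Tnc and Aldh1a2. How many of all genes listed in the FGF2 table follow each of these patterns was not calculated, so the split is a description only. Col1a1 had a ratio of 2.15 in FGF2 cluster 8. Il11 had a ratio of 5.42 in FGF2 cluster 7, with 99.3% of its cells positive. Tnc and Gsto1 were lower in FGF2 cluster 8, with ratios of 0.749 and 0.732. Gng11 was higher in FGF2 cluster 8, with a ratio of 1.60, and lower in FGF2 cluster 7, with 0.669. Among genes lower in cluster 6, 33 were also lower in FGF2 cluster 7 and 21 in FGF2 cluster 8, against 4.32% and 2.42% of all genes listed in the FGF2 table. Fabp5 had a ratio of 0.593 in FGF2 cluster 8, where 7 genes lower in cluster 6 were listed higher, with Lpl at 1.54. With 1 library a condition, none of these values compares control with FGF2 organoids, and a difference between clusters and one between libraries cannot be told apart.

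**Figure D5:**
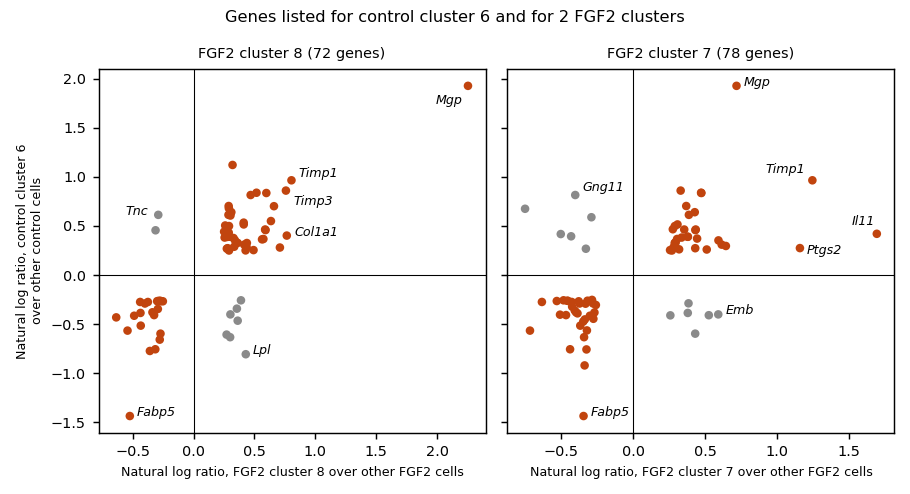
Natural log ratio in control cluster 6 (y axis) against that in FGF2 cluster 8 (left, 72 genes) and FGF2 cluster 7 (right, 78 genes), each relative to the other cells of its library. Orange points have the same direction in both and grey points do not, with Mgp at the upper right of the cluster 8 plot and Il11 and Timp1 far to the right in the cluster 7 plot.

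The table of both libraries after integration holds the same cells again, with values that may have been altered by the integration, so its entries are given side by side and compared with nothing. Its cluster 10, calculated to hold 1.77% of all cells, was led by Mgp, Pmepa1 and Slc20a1. Mgp was found in 97.4% of its cells, against 71.7% of the others, with a ratio of 7.48. Integrated cluster 3, calculated to hold 14.5% of all cells, was also led by Mgp, found in 88.0% of its cells with a ratio of 2.70. In integrated cluster 10, Pmepa1 had a ratio of 3.64, Slc20a1 3.48, Timp1 3.22 and Mmp9 2.13. Timp3 had a ratio of 1.39 in integrated cluster 10, 1.42 in integrated cluster 3 and 1.73 in integrated cluster 12. Mmp9 was found in 48.5% of integrated cluster 10 cells, against 31.1% of the others, and was listed for no other integrated cluster. Heyl was found in 44.8% of integrated cluster 10 cells, against 7.8% of the others. Which control or FGF2 cells make up this cluster is not known from the table.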

How the data were processed

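Cells of 1 control and 1 FGF2 library were captured on the 10x Chromium system, per the labels' protocols. Cell Ranger 4.0 and the build mm10 are named in the submitters' processing notes. No source used here names the cell filters, the treatment of doublets, the clustering or the differential test. The column headers name a log ratio and give no base. The deposited log ratios were taken as natural log values from a check of the base on genes with no positive cell in several clusters (median coefficient of variation 0.00169% with the natural log and 0.0488% with base 2, 8 genes). The deposited shares are fractions, printed here as percentages. The authors' p-values treat each cell as a replicate and are not printed.

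A table was assigned to a library by the word its name shares with a sample description. The part of cells in each cluster was calculated by least squares over 2077 control genes, since the share over all cells must be the same from every cluster (residual 0.0238 percentage points). On simulated shares of 4419 genes, the cluster 6 part was recovered to within 0.00162 points. No test was made. Genes were named as the 20 highest and 12 lowest by log ratio, the 10 highest among those higher in no other control cluster, the 10 with the widest gain in share, the 10 rarest outside, the label markers and members of 25 gene lists and 20 marker lists. Some genes that this rule names are not reported here. The members and lists were chosen with earlier results of these data known. Clusters were named as "like" a cell type from at least 3 markers. Promoter windows came from RefSeq and gene positions from GENCODE. Python 3.11.15, pandas 2.3.3, numpy 2.4.6, scipy 1.17.1 and matplotlib 3.10.9 were used.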

Additional observations from a re-analysis of the deposited data

How the results depend on the processing

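With a log ratio of at least 0.5 in size, 32 higher and 37 lower genes remained of the 143 and 152, and a share difference of at least 10 points in the same direction left 136 higher and 52 lower genes. Some lower genes, but no higher ones, were lost when the authors' adjusted p-values had to lie under 0.05. Those p-values treat each cell as a replicate. The part of control cells in cluster 6 was 7.15% with genes of at least 3 clusters, 7.16% with mean shares between 10 and 90%, and 7.15% with parts forced to sum to 1. The genes higher in no other control cluster, 37 in all, became 86 when another cluster counted only at 0.5, 85 against clusters 0, 1, 2, 3 and 5 alone, 38 without clusters 4 and 9, and 11 with 0.5 asked of both. At 0.5 in the other cluster, 57 of the 106 shared genes were left. FGF2 cluster 8 ranked first under each measure, with 0.74 for the Pearson correlation, 0.70 for share differences and 0.59 without mitochondrial, ribosomal and predicted genes. The list members listed higher, 63 in all, were 22 at 0.5, and the 4 markers of other cell types were 2. The median ratio of the 20 leading genes was 2.02 with the natural log and 1.63 with base 2. No paired analysis was possible because each condition has 1 library. Cell numbers and counts per cell, which would give the error of each share, were not used here.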

Other observations

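Some families outside the lists also lay on the lower side of cluster 6. They were chosen after their values were seen and are given with no test. Of all listed genes, 3.44% were lower in cluster 6 and 3.24% higher. The lower side was not particular to cluster 6, since each member listed lower was also listed lower in another control cluster. Cdkn1c was listed lower in 8 other control clusters and higher in 3, and Cavin2 lower in 6 and higher in 3. Of 17 imprinted genes in the control table, expressed from 1 parental copy, 7 were listed lower in cluster 6 and none higher. Peg3 was found in 77.4% of cluster 6 cells, against 79.2% of other control cells, with a log ratio of -0.79. Cdkn1c was found in 83.6% of cluster 6 cells, against 84.4% of other cells, with a log ratio of -0.63. The others were Peg10, Dlk1, Ndn, Grb10 and Gnas, with log ratios from -0.41 to -0.28.

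Of 5 genes for caveolae, the small pits of the cell membrane, Cav1, Cavin1, Cavin2 and Cavin3 were listed lower and none higher. Cavin2 was found in 41.5% of cluster 6 cells, against 65.1% of other control cells, with a log ratio of -0.57. Of 7 genes for S100 calcium-binding proteins, 5 were listed lower and none higher, and S100a4 had the lowest log ratio of them at -0.77. Of 11 tubulin genes, Tuba1a, Tuba1b and Tubb5 were listed lower and none higher.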
